A study of Mus musculus with 18 samples.

Results

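The genes described here encode 45 enzymes and membrane proteins of the lysosome, chosen by name from a list of symbols. A symbol was matched to the gene symbols of the array annotation, and the probe with the highest mean signal stood for the gene. Of the 45 symbols, 43 had a probe among the 30869 symbols on the array, with 94 probes in all. Lipa, the lysosomal acid lipase, and Tfeb, a transcription factor of lysosomal genes, had no probe under those names. Tfeb is listed under its older symbol Tcfeb, and its probe was detected on at most 2 of the 3 arrays of any condition. Of the 43 members, 35 were detected on all arrays of all 6 conditions. Ctsc, Ctss, Gla and Aga were detected on too few arrays to be tested in any comparison, which left 39 members.

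The cells were ESD3 (D3) mouse embryonic stem (ES) cells of strain 129s2/SvPas, a pluripotent line maintained on primary mouse embryo fibroblast feeders. Control cells carried an shRNA against luciferase, and HPRT-knockdown cells carried an shRNA against HPRT, the purine salvage enzyme encoded by Hprt1. Both had received a viral vector, described as retroviral in the sample labels and as lentiviral, with puromycin selection, in the study's methods, where the HPRT shRNA was designed against the human gene. Each was studied at the ES stage, as spherical neural mass (SNM, a floating neural precursor culture) and at the final neuronal stage of a dopaminergic differentiation. RNA of replicate cultures was pooled for each condition and the pool was hybridised to 3 arrays, so SDs and p-values cover the spread between arrays of 1 pool, not between cultures. Only 1 control and 1 knockdown population were compared, and other differences between them cannot be told apart from the loss of HPRT. The question was how HPRT deficiency alters gene expression as ES cells become neurons.

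Lysosomes are acidic organelles in which proteins, glycans, lipids and nucleic acids are taken apart. Soluble hydrolases reach them mostly through mannose 6-phosphate receptors, a proton pump acidifies them, and glycosylated membrane proteins line them. Many of their genes share a CACGTG element (an E-box) near the transcription start, which is bound by TFEB and its relatives, factors that mTORC1 keeps out of the nucleus in fed cells. Loss of many of these proteins causes storage disease, often of the brain: Ppt1, Tpp1 and Cln3 are genes of neuronal ceroid lipofuscinosis, Npc1 of Niemann-Pick disease, Naglu and Arsb of mucopolysaccharidoses, and Galc and Arsa of leukodystrophies in which myelin lipids cannot be broken down.

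Promoter sequence from RefSeq (GRCm38.p6), covering 250 bases before to 50 after the start of each gene, was found for 40 of the 45 symbols. CACGTG was present in 13 of the 40 (32.5%), against 8.09% of the promoters of 27025 genes. TCACGTG on either strand, which contains it, was present in 11 of 40 (27.5%) against 4.29%, and the palindrome TCACGTGA, which contains both, in 5 of 40 (12.5%) against 1.12%. These shares are descriptions of letters in a window, not of binding. Of the 13 members with CACGTG, 7 rose in knockdown cells at the SNM or neuronal stage. So did 11 of 27 without it and 4 of 5 with no promoter sequence, and a link to the element was not tested. Lamp1 held 4 copies, which began 61, 45, 28 and 15 bases upstream of its start. Of the 7 members that rose and hold the element, windows are shown for the 6 of largest change in a knockdown comparison. Gaa is left out by this limit. The windows run 5′ to 3′ on the strand of the gene, with each upstream copy in capitals. The 6 are the proteases Ctsa, Ctsl and Ctsf, the glycan and sulfatide enzymes Naglu and Arsa and the membrane protein Cln3, described below. No printed window goes past the start, so a second Ctsa copy, which begins at base 6 downstream, is not shown. They lie at chr2:164833736-164833772 (plus strand) for Ctsa, chr11:101069996-101070051 (plus) for Naglu, chr7:126583327-126583410 (minus) for Cln3, chr13:64370726-64370770 (minus) for Ctsl, chr15:89477425-89477465 (minus) for Arsa and chr19:4855061-4855116 (plus) for Ctsf.
Ctsa: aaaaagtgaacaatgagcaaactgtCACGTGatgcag
Naglu: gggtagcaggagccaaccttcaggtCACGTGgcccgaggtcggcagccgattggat
Cln3: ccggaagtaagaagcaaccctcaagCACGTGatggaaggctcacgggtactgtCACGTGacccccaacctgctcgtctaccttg
Ctsl: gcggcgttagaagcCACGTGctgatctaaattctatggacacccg
Arsa: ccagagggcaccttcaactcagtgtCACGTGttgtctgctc
Ctsf: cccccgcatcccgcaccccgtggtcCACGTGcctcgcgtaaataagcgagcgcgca

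Values are log2 signals after background correction and quantile normalisation, and a difference of 1 is a 2-fold change. A member is said to have risen or fallen where the Benjamini-Hochberg adjusted p of the limma model, over all probes tested, was under 0.05 and the change at least 1.5-fold. Between 18827 and 22202 of 45281 probes were detected per array, and the median SD of a member over 3 arrays was 0.0845. Hprt1 checked the labels. At the ES stage its signal was 12.04, 12.07 and 12.00 on the control arrays and 8.14, 7.96 and 7.75 on the knockdown arrays (log2 difference -4.09, SE 0.08, adjusted p = 7.15e-15). At the SNM stage it was 11.23, 11.23 and 11.13 against 9.34, 9.47 and 9.50, a difference of -1.76, and at the neuronal stage 11.08, 11.03 and 11.03 against 6.56, 6.64 and 6.60, a difference of -4.45. All knockdown arrays were below all control arrays, and the difference was smallest at the SNM stage.

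Marker genes of several of 9 cell types differed between control and knockdown cultures after the ES stage. At the neuronal stage the summed signal of 12 skeletal muscle genes ranged from 78700 to 79700 on control arrays and from 432 to 567 on knockdown arrays, with 11 of 12 lower in knockdown. The summed signal of 13 oligodendrocyte genes ranged from 3520 to 3710 in control and from 75000 to 79500 in knockdown, with 13 of 13 higher. Neuronal genes went from 8210 to 8800 in control to 1890 to 1940 in knockdown, 6 of 8 tested were lower, Nefl and Snap25 were detected on no array of either, and Tubb3 on none of the knockdown arrays. Fibroblast and mesenchyme genes summed to 40200 to 43100 in control and 22600 to 25100 in knockdown, with 11 of 15 lower, and ES cell genes to 4640 to 4860 and 1250 to 1330, with 7 of 8 lower. Astrocyte and radial glia genes summed to 11900 to 12600 and 18100 to 18900, with 6 of 9 higher, and endoderm genes to 490 to 504 and 1040 to 1070, with 5 of 6 tested higher. The label neuronal is therefore kept here as the name of the stage only. Microglia and macrophages, which are rich in lysosomes, had low sums, 468 to 474 in control and 515 to 591 in knockdown, and Itgam, Cx3cr1, Tyrobp, Fcer1g, C1qa, C1qb, C1qc and Trem2 were detected on no array. Of the 5 microglial genes tested at that stage 2 were higher in knockdown cells, Cd14 by 0.69 and Fcgr3 at least 3.63-fold, and none was lower. In these bulk samples fewer cells of a type and less RNA per cell cannot be told apart, and the part of cell composition in the results below was not tested.

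**Figure D1:**
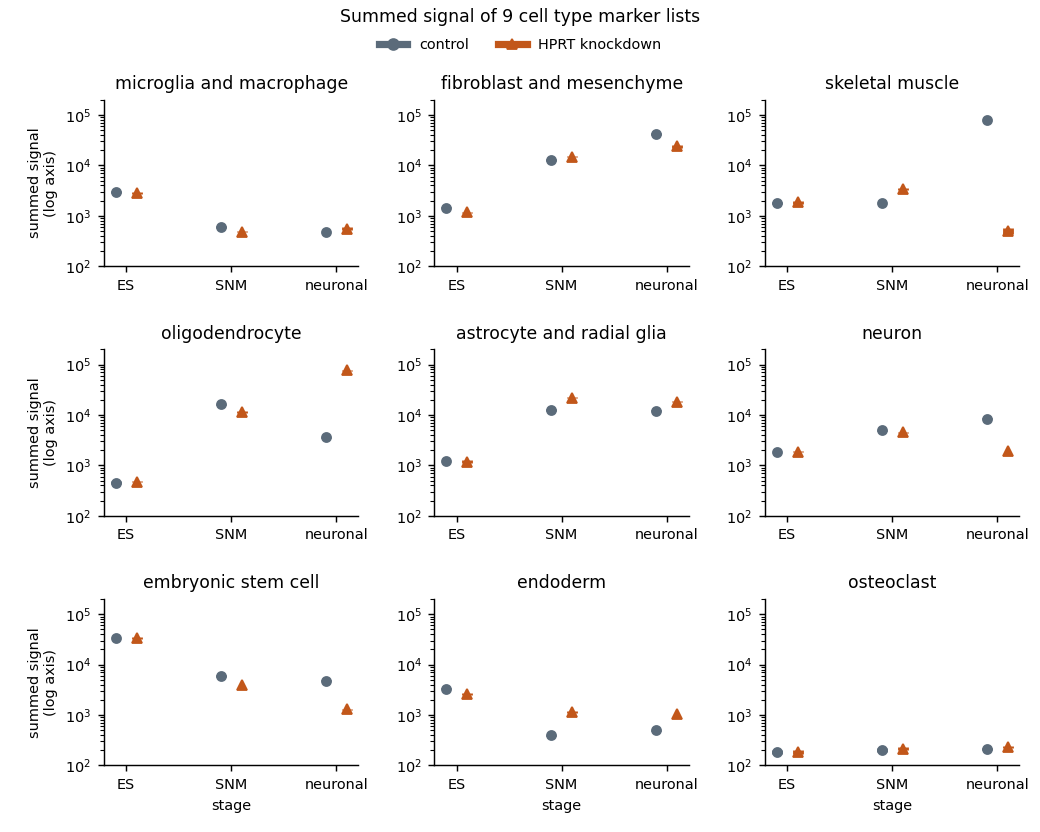
Summed signal of each of 9 cell type marker lists (log axis, linear signal units) by stage, for control and HPRT-knockdown cells. A thick bar, mostly hidden by its point, runs from the lowest to the highest of 3 arrays. At the neuronal stage muscle genes sit between 78700 and 79700 in control against 432 to 567 in knockdown, while oligodendrocyte genes sit between 3520 and 3710 against 75000 to 79500.

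At the ES stage the lysosomal genes of knockdown and control cells were close to each other. Of 36 members tested none rose (0.516% of all 18411 probes did) and 1 fell (1.17% of all probes did). The median log2 difference of the members was 0.02, beside 0.01 over all probes tested, with 20 members above 0 and 16 below. Before adjustment, 11 members had a p under 0.05 in the limma model, 7 of them higher and 4 lower, and the methods' t-test with the fold threshold also called none higher. The arrays of the groups did not overlap for 15 of 36. For this count and the one before adjustment no share of all probes is given. Medians by role ranged from -0.08 for 8 proteases to 0.12 for 8 enzymes and activators of sphingolipid breakdown, and members that did not pass lay between -0.26 and 0.35.

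The member that fell was Lamp2, which encodes one of the most abundant glycoproteins of the lysosomal membrane and is needed for the fusion of autophagosomes. The brightest Lamp2 probe read 10.53, 10.49 and 10.52 in control and 9.82, 10.03 and 9.84 in knockdown cells. The difference was -0.62 (SE 0.08, adjusted p = 0.000128), a 1.53-fold fall just past the threshold. The groups did not overlap. The call was lost without knockdown array 1 (log2 difference -0.58), with background correction but no normalisation between arrays (-0.56) and as a mean over the detected Lamp2 probes (-0.26), and the methods' t-test gave an adjusted p of 0.0533. Other probes of the gene differed from this one, as described further on.

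The markers of lysosomes most used in practice were nearly level at this stage. Lamp1, the companion of Lamp2, read 11.79, 11.75 and 11.86 in control and 11.92, 11.89 and 11.98 in knockdown cells, a difference of 0.13 (SE 0.09, adjusted p = 0.409). Ctsd, the aspartic protease cathepsin D, read 6.61, 6.52 and 6.99 against 6.87, 6.60 and 6.35, with overlap (difference -0.10, adjusted p = 0.739). Grn, which encodes progranulin, a secreted and lysosomal protein, read 10.41, 10.37 and 10.38 against 10.45, 10.47 and 10.53 (difference 0.09, adjusted p = 0.391). None passed the test. Tcfeb averaged 5.13 ± 0.37 (SD, n = 3) in control and 4.78 ± 0.07 in knockdown cells, near the limit of detection and not tested.

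**Figure D2:**
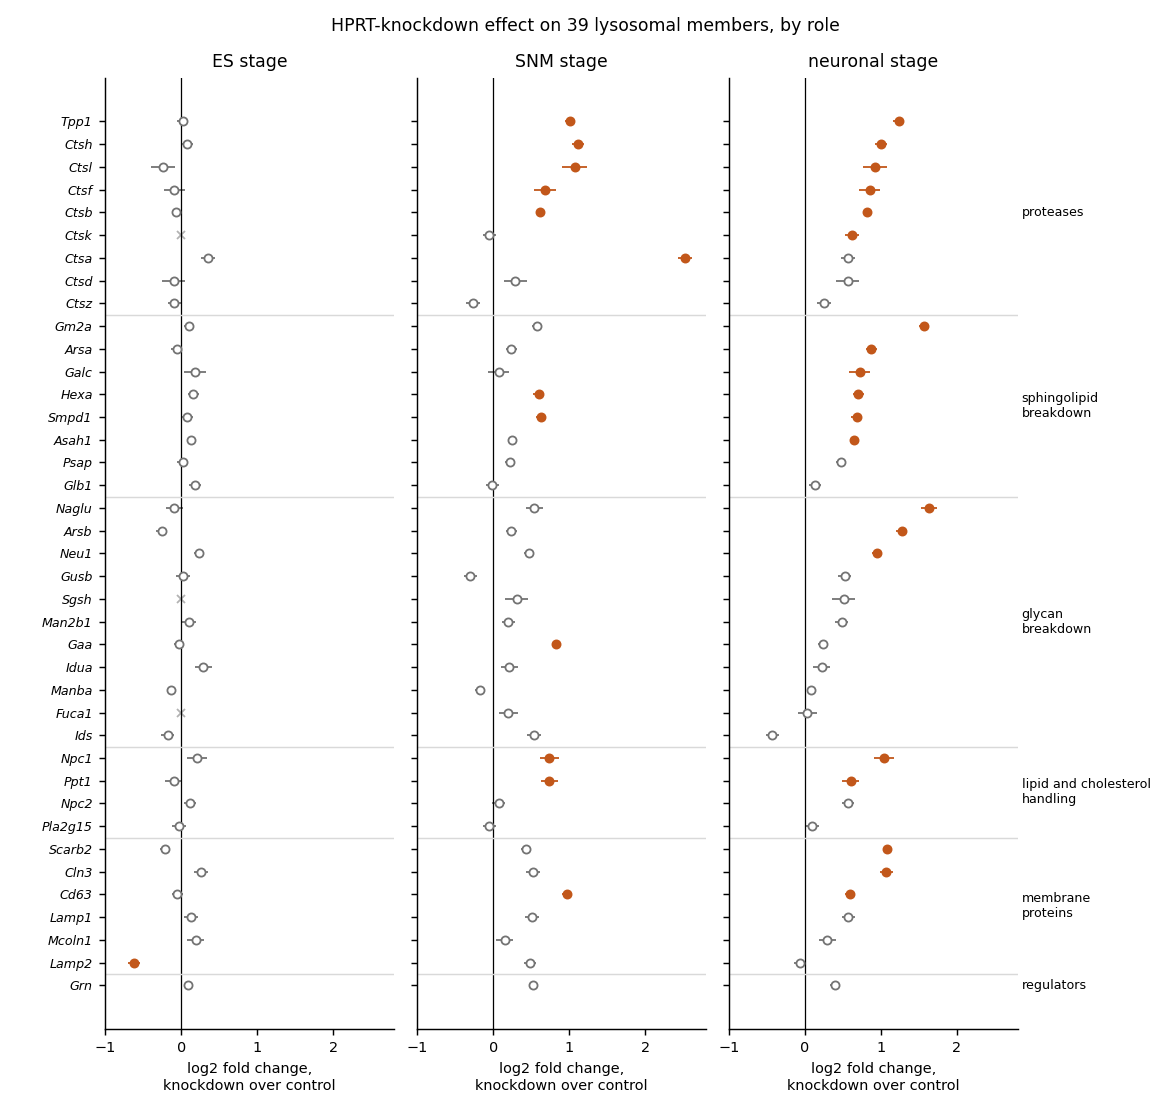
Log2 fold change of knockdown over control for 39 members, grouped by role, with the SE of the limma model as bars. All were tested at the SNM and neuronal stages and 36 at the ES stage, where grey crosses at 0 mark Ctsk, Sgsh and Fuca1 as not tested. The tested members have medians of 0.02 (ES), 0.47 (SNM) and 0.59 (neuronal). Ctsa stands at 2.52 in the SNM panel, and Naglu and Gm2a stand highest in the neuronal panel.

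At the SNM stage 12 lysosomal genes were higher in HPRT-knockdown cells and none was lower. They comprised 6 of 9 proteases tested, 2 of 8 genes of sphingolipid breakdown, 1 of 11 of glycan breakdown, 2 of 4 of lipid and cholesterol handling and 1 of 6 membrane proteins. The share of members that rose was 30.8% of the 39 tested, where 11% of all probes and 12.0% of the brightest probe of each symbol rose, and 8.90% of all probes fell. At an unadjusted p under 0.05, 26 members were higher and 3 lower in limma, and the methods' t-test also called none lower. The median log2 difference was 0.47 for the members and -0.04 for all probes, and 33 members lay above 0 and 6 below. The arrays of the groups did not overlap for 28 of 39. A further 16 members passed the adjusted p without reaching 1.5-fold, and members without a call lay between -0.30 and 0.57. The counts at an unadjusted p, without overlap or under 1.5-fold have no share of all probes beside them and describe the members only.

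Proteases led the list. Ctsa encodes cathepsin A (protective protein), a carboxypeptidase that also holds neuraminidase and beta-galactosidase in a complex. Its brightest probe read 7.32, 7.38 and 7.28 in control and 9.97, 9.93 and 9.64 in knockdown cells, a difference of 2.52 (SE 0.09, adjusted p = 2.33e-12) or 5.74-fold. All knockdown arrays were more than 2 log2 units above the control arrays. The rise was not seen by the other tested probes of Ctsa, which differed by 0.23 (adjusted p = 0.097) and 0.05 (adjusted p = 0.741), so the rise rests on 1 probe. Those probes were dimmer, with mean raw signals of 182.1 and 81.1 against 453.8.

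The other protease genes moved by about 2-fold or less. Ctsh encodes cathepsin H, an aminopeptidase, and read 6.57, 6.27 and 6.32 in control against 7.57, 7.54 and 7.39 in knockdown cells, a difference of 1.12 (SE 0.08, adjusted p = 7.75e-09). Ctsl, the cysteine endopeptidase cathepsin L, read 5.94, 5.96 and 5.30 against 6.88, 6.82 and 6.71, a difference of 1.07 (SE 0.16, adjusted p = 4.01e-05). Control array 3 stood below the rest, and all knockdown arrays were above all control arrays. Tpp1, the tripeptidyl peptidase lost in a form of ceroid lipofuscinosis, read 8.07, 8.14 and 8.13 against 9.05, 9.12 and 9.21, a difference of 1.01 (SE 0.07, adjusted p = 6.56e-09). Ctsf rose by 0.68 and Ctsb by 0.61, both cysteine cathepsins. Ctsd read 5.84, 5.86 and 5.53 against 6.20, 5.86 and 6.04, with overlap, and did not pass (0.29, adjusted p = 0.125). Ctsz, a carboxypeptidase, was at -0.27 and Ctsk, a collagenase, at -0.05.

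Among the enzymes of lipids and glycans, Gaa and the lipofuscinosis gene Ppt1 were the clearest. Gaa, the acid alpha-glucosidase that breaks down glycogen, read 9.01, 8.94 and 8.81 in control and 9.77, 9.79 and 9.69 in knockdown cells, a difference of 0.83 (SE 0.06, adjusted p = 7.56e-09), with no overlap. Ppt1, a thioesterase that removes palmitate from proteins, rose by 0.74 (adjusted p = 2.7e-05), from 6.97, 7.05 and 6.72 to 7.81, 7.46 and 7.67. Npc1, the cholesterol exporter of the lysosomal membrane, rose by 0.74 (adjusted p = 0.000119), from 9.61, 9.68 and 9.96 to 10.43, 10.58 and 10.48. Both genes had every knockdown array above every control array. Another tested probe of Npc1 rose by 0.79 (adjusted p = 0.000253), and a further one read -0.18 (adjusted p = 0.106). Smpd1, the acid sphingomyelinase, rose by 0.63 and Hexa, the alpha subunit of hexosaminidase A, by 0.60.

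Of the membrane proteins, Cd63 rose. This tetraspanin of late endosomes and exosomes read 11.69, 11.49 and 11.46 in control and 12.60, 12.41 and 12.56 in knockdown cells, a difference of 0.97 (SE 0.07, adjusted p = 2.13e-08), without overlap. Lamp1 read 11.41, 11.36 and 11.20 against 12.04, 11.81 and 11.65, a difference of 0.51 (SE 0.09, adjusted p = 0.000202), and Grn 9.47, 9.35 and 9.38 against 10.07, 9.88 and 9.85, a difference of 0.53 (adjusted p = 3.36e-06). In both genes the arrays were fully apart but the change stayed under 1.5-fold. Lamp1 passed 1.5-fold without knockdown array 3 (0.61).

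With scaling to the 75th percentile and no background correction, 7 members rose in place of 12 (5.98% of all probes rose then) and the members' median was 0.32. At this stage oligodendrocyte genes summed to 16100 to 16600 in control and 11000 to 11800 in knockdown cells, astrocyte and radial glia genes to 12200 to 12900 and 22000 to 22400, and muscle genes to 1760 to 1800 and 3290 to 3590. Endoderm genes summed to 382 to 404 in control and 1120 to 1200 in knockdown cells, with 5 of 7 tested higher, and ES cell genes to 5810 to 6130 and 3880 to 3990, with 5 of 8 lower.

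**Figure D3:**
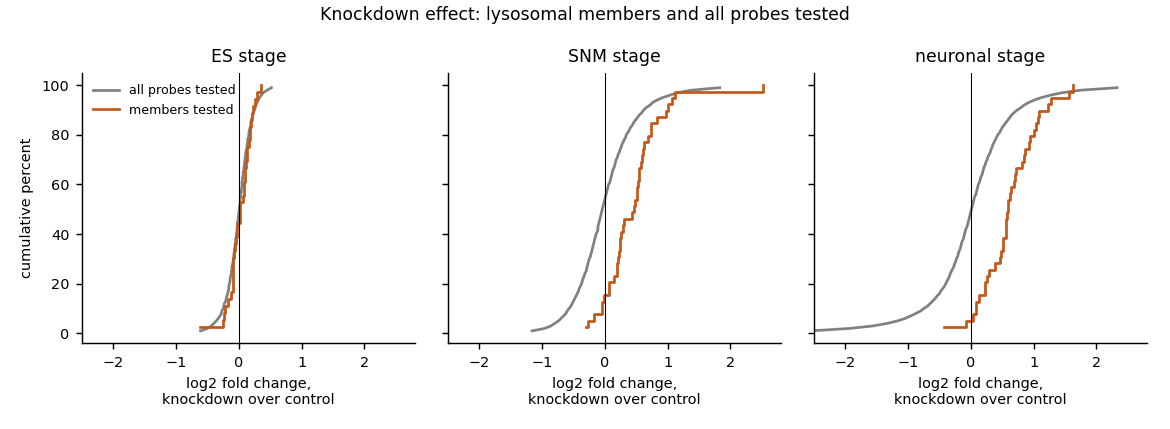
Cumulative percent of log2 fold changes, knockdown over control, for the members tested and for all probes tested, at each stage. All probes are drawn by their percentiles within an axis from -2.5 to 2.8, so their extreme tails are left out. The curves nearly coincide at the ES stage (medians 0.02 and 0.01), and the members lie to the right at the SNM (0.47 and -0.04) and neuronal stages (0.59 and 0.01).

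At the neuronal stage 20 of 39 members rose in knockdown cells and none fell. Sphingolipid breakdown was the group with most additions, with 6 of 8 genes tested higher, beside 6 of 9 proteases, 3 of 11 genes of glycan breakdown, 2 of 4 of lipid and cholesterol handling and 3 of 6 membrane proteins. The members that rose were 51.3% of those tested, where 13.9% of all probes and 14.3% of the brightest probe of each symbol rose, and 13.5% of all probes fell. At an unadjusted p under 0.05, 32 were higher and 1 lower in limma, and the methods' t-test also called none lower. The median difference was 0.59 against 0.01 over all probes, and 37 members were above 0 and 2 below. The arrays did not overlap for 33 of 39, and 13 members passed the adjusted p but not 1.5-fold. No share of all probes is given for these counts or those at an unadjusted p, so they describe the members only. Members without a call lay between -0.43, for Ids, and 0.57.

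The 2 largest rises were in genes of heparan sulfate and ganglioside breakdown. Naglu, the alpha-N-acetylglucosaminidase lost in Sanfilippo syndrome type B, read 7.19, 7.11 and 7.10 in control and 8.68, 8.81 and 8.79 in knockdown cells, a difference of 1.63 (SE 0.11, adjusted p = 2.26e-09) or 3.09-fold. Gm2a, the activator that presents ganglioside GM2 to hexosaminidase A, read 9.29, 9.43 and 9.38 against 10.89, 11 and 10.89, a difference of 1.56 (SE 0.06, adjusted p = 1.84e-12). For both, all knockdown arrays were more than 1 log2 unit above all control arrays. At the SNM stage the same probes had read 0.54 and 0.57, under 1.5-fold.

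Arsb, the sulfatase of dermatan and chondroitin sulfate, read 9.19, 9.09 and 9.13 in control and 10.44, 10.40 and 10.38 in knockdown cells, a difference of 1.27 (SE 0.07, adjusted p = 4.05e-10), without overlap. A second Arsb probe read 0.25 (adjusted p = 0.121), so this rise too rests on 1 probe. That second probe was near background, with a mean raw signal of 74.5 against 529.9, and was detected on all arrays of only 1 condition. Neu1, the neuraminidase that works in the Ctsa complex, read 9.45, 9.35 and 9.29 against 10.36, 10.34 and 10.23 (difference 0.94, adjusted p = 1.44e-09). Its partners did not pass the fold threshold: Ctsa read 8.62, 8.59 and 8.53 against 9.27, 9.14 and 9.0 (0.56, adjusted p = 4.07e-05), and Glb1, the beta-galactosidase, 0.13 (adjusted p = 0.2). A second Ctsa probe did rise, by 0.69 (adjusted p = 7.47e-05).

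Several of the sphingolipid genes that rose act on lipids of myelin. Arsa, the arylsulfatase that removes sulfate from sulfatide, read 9.78, 9.72 and 9.77 in control and 10.64, 10.55 and 10.70 in knockdown cells (difference 0.87, adjusted p = 4.52e-08). Galc, the galactosylceramidase lost in Krabbe disease, read 5.30, 5.31 and 5.25 against 6.12, 6.16 and 5.75 (0.72, adjusted p = 0.000418). Asah1, the acid ceramidase, read 11.81, 12.00 and 11.90 against 12.54, 12.54 and 12.55 (0.64, adjusted p = 3.77e-08). No array overlapped between groups in these genes. A second Galc probe read 0.53 (adjusted p = 0.00123). Hexa rose by 0.70 and Smpd1 by 0.68, while Psap, the precursor of the saposin activators, was at 0.47 on its brightest probe and rose by 0.61 on another.

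Among proteases, Tpp1 read 8.20, 8.37 and 8.34 in control and 9.46, 9.59 and 9.57 in knockdown cells (difference 1.23, SE 0.07, adjusted p = 2.31e-10) and Ctsh 7.11, 7.12 and 7.20 against 8.13, 8.16 and 8.12 (1.00, adjusted p = 1.35e-08). Ctsl rose by 0.92, Ctsf by 0.85, Ctsb by 0.82 and Ctsk by 0.62. All of these had separate arrays. Ctsd read 6.46, 6.27 and 6.06 against 6.92, 6.67 and 6.88, apart but under 1.5-fold (0.56, adjusted p = 0.00498), and passed it when control array 1 (0.66) or knockdown array 2 (0.63) was left out.

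In the membrane, Scarb2 and Cln3 joined Cd63. Scarb2 encodes LIMP-2, the receptor that carries beta-glucocerebrosidase to lysosomes, and read 7.82, 7.71 and 7.74 in control and 8.83, 8.87 and 8.81 in knockdown cells (difference 1.08, SE 0.06, adjusted p = 1.6e-10). Cln3, the membrane protein of juvenile ceroid lipofuscinosis, read 8.02, 7.84 and 7.89 against 9.02, 8.95 and 9.0 (1.07, SE 0.09, adjusted p = 1.92e-08). The arrays of both were well apart. Cd63 rose by 0.59, at the threshold, and 2 other Cd63 probes read 0.43 and 0.34 without reaching it. Npc1 rose by 1.04, and by 0.98 on another probe, and Ppt1 rose by 0.60. The Npc1 probe that had not risen at the SNM stage read 0.03. Mcoln1, a calcium channel of the lysosome, was at 0.29.

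Lamp1 read 11.71, 11.57 and 11.61 in control and 12.32, 12.25 and 12.04 in knockdown cells, fully apart at a difference of 0.57 (adjusted p = 5.31e-05) and just under 1.5-fold. It passed 1.5-fold without control array 1 (0.61) or knockdown array 3 (0.66). Grn read 10.14, 10.08 and 10.01 against 10.53, 10.41 and 10.46 (0.39, adjusted p = 6.35e-05). Gaa, higher at the SNM stage, read 10.10, 10.06 and 10.05 against 10.35, 10.23 and 10.34 (0.23, adjusted p = 0.00216). Tcfeb averaged 4.73 ± 0.10 against 4.76 ± 0.28 (SD, n = 3) and was not tested. The marker sums of muscle, oligodendrocytes and other cell types given earlier differ between the same arrays.

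**Figure D4:**
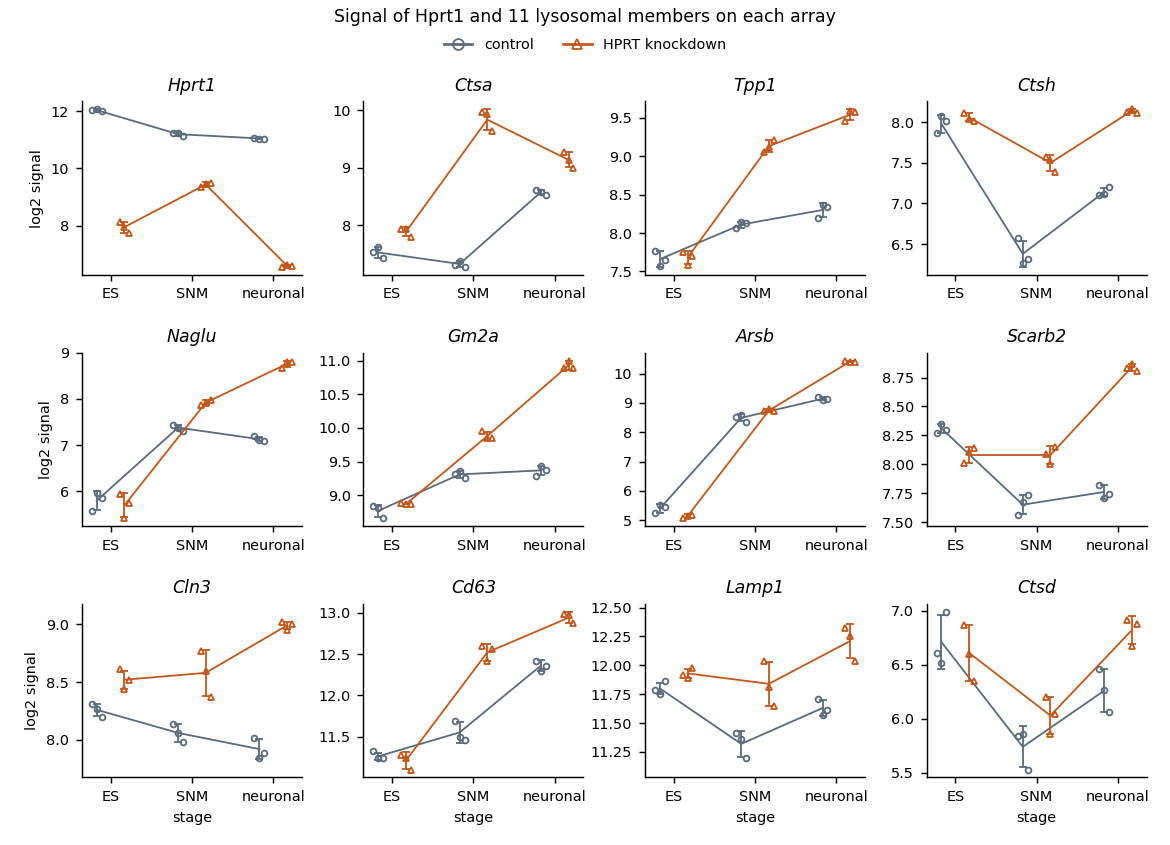
Log2 signal of Hprt1 and 11 lysosomal members on each of the 3 arrays per condition at the ES, SNM and neuronal stages, for control and HPRT-knockdown cells. Each panel has its own vertical scale and levels are not comparable between panels. Knockdown arrays stand above control arrays for Tpp1, Ctsh and Cd63 at the SNM and neuronal stages, for Ctsa most at the SNM stage and for Naglu, Gm2a and Arsb most at the neuronal stage.

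In all, 22 members rose at one or both of these stages. Those that rose at both numbered 10: the proteases Ctsb, Ctsf, Ctsh, Ctsl and Tpp1, with Hexa, Smpd1, Npc1, Ppt1 and Cd63. Ctsa and Gaa were called at the SNM stage and not at the neuronal stage, and Arsa, Arsb, Asah1, Cln3, Ctsk, Galc, Gm2a, Naglu, Neu1 and Scarb2 at the neuronal stage and not at the SNM stage. The brightest probe was called in no knockdown comparison for 20 members, of which Aga, Ctsc, Ctss and Gla were tested at none of the 3 stages. Another probe was called for 3 of the 20: Ids at the SNM stage (0.59), and Gusb (0.59) and Psap (0.61) at the neuronal stage. That Ids probe was near background, with a mean raw signal of 77.0, and was detected on no control array at the SNM stage. Over every member probe that was tested rather than the brightest, 21 of 62 rose at the SNM stage and 31 of 64 at the neuronal stage, and none fell, while at the ES stage 0 of 59 rose and 1 fell. The shares of all probes that rose or fell at each stage, given earlier, are the background for these probe counts. No share of all probes is given for rises at either stage, at both or at only one. Those counts of members therefore describe the members only.

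Lamp2 was read by several probes, and they did not give the same picture. The gene makes splice forms with different tails, LAMP-2A and LAMP-2B among them. The brightest probe, annotated to transcript variant 2, read 11.71, 11.73 and 11.88 against 12.14, 12.30 and 12.30 at the SNM stage (difference 0.48) and 12.09, 12.27 and 12.12 against 11.98, 12.09 and 12.20 at the neuronal stage (-0.07, adjusted p = 0.492, with overlap). The brightest of 3 probes annotated to transcript variant 1 read 9.70, 9.56 and 9.53 in control and 10.88, 10.77 and 10.82 in knockdown cells at the neuronal stage, a rise of 1.23 (adjusted p = 7.43e-10). The other variant 1 probes rose by 1.22 and 1.08. At the SNM stage 2 of the 3 rose, by 0.62 and 0.64, the last reading 0.54, and at the ES stage they read -0.13, -0.05 and -0.11 without passing. A second bright probe with no variant label read -0.57, 0.44 and -0.06 at the 3 stages. Within arrays, the variant 1 minus variant 2 difference was higher in knockdown cells by 1.29 at the neuronal stage and by 0.57 at the ES stage (exact permutation test, two-sided p = 0.1 for each, the smallest that 3 against 3 arrays allow), with no overlap. At the SNM stage it was higher by 0.16 and overlapped (exact p = 0.2).

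**Figure D5:**
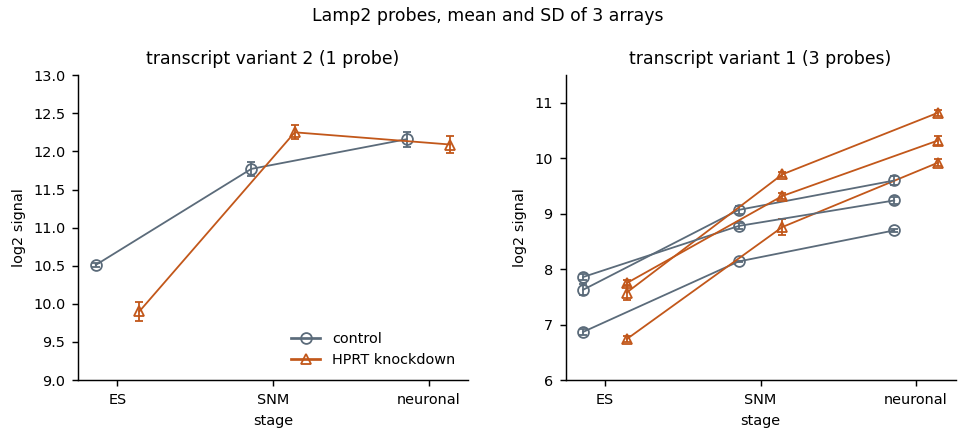
Mean log2 signal of 1 variant 2 and 3 variant 1 probes of Lamp2 with the SD of 3 arrays, by stage, for control and HPRT-knockdown cells. The panels have separate vertical scales, and levels of different probes are not comparable. The variant 2 probe is lower in knockdown cells at the ES stage (-0.62) and level at the neuronal stage (-0.07), while the variant 1 probes are higher in knockdown cells by 1.08 to 1.23 at the neuronal stage.

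In control cells 10 of 38 members rose from the ES to the SNM stage (23.7% of all probes rose) and 7 fell (25.4% of all probes fell), with a median of 0.06 beside -0.08 for all probes. Arsb rose most, from 5.23, 5.53 and 5.44 to 8.53, 8.59 and 8.36 (difference 3.09, 8.53-fold). Ids, the iduronate sulfatase, rose by 2.04, Smpd1 by 1.86 and Naglu by 1.58. Ctsk was not detected at the ES stage and was at least 2.05-fold higher at the SNM stage in control cells. Manba, the beta-mannosidase, fell most, from 10.94, 10.98 and 10.86 to 8.56, 8.59 and 8.44 (-2.40). Glb1, Ctsh, Grn, Ctsd, Ctsl and Scarb2 fell by between 0.65 and 1.60 on the log2 scale. The balance depended on the scaling. With scaling to the 75th percentile 7 rose and 8 fell (14.5% of all probes rose then). The median of all probes was then -0.17 and that of the members -0.04. With background correction alone 15 rose and 4 fell (32.4% of all probes rose then), and these medians were 0.19 and 0.34.

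In knockdown cells 17 of 39 rose over the same interval (26.4% of all probes) and 2 fell, Manba by 2.45 and Glb1 by 1.58 (30.9% of all probes fell), with a median of 0.37 beside -0.11. Arsb rose by 3.60, Ids by 2.76, Smpd1 by 2.41, the brightest Lamp2 probe by 2.35 and the brightest Ctsa probe by 1.96. Other Ctsa probes went from 7.46 to 6.77 and from 5.17 to 4.91 over this interval. Of the genes that fell in control cells, Ctsh read -0.55 and Grn -0.55 in knockdown cells, under 1.5-fold, Ctsd -0.57, Ctsl 0.37 and Scarb2 -0.01. Without knockdown SNM array 1 the number that fell was 5, as with scaling to the 75th percentile, where 14 rose (16.8% of all probes).

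From the SNM to the neuronal stage 10 of 39 members rose in control cells (14.3% of all probes) and none fell, in limma (15.1% of all probes fell). At an unadjusted p under 0.05, 24 members were higher and 2 lower (share of all probes not given), and the methods' t-test also called none lower. The brightest Ctsa probe rose by 1.25, Gaa by 1.15, Ctsf by 1.00 and Cd63 by 0.81. With scaling to the 75th percentile 6 rose (9.0% of all probes rose then). In knockdown cells 13 rose (13.8% of all probes) and 1 fell, Ctsa by 0.71 (14.8% of all probes fell). That fall is on the brightest Ctsa probe, and other Ctsa probes went from 6.77 to 7.41 and from 4.91 to 5.25. Arsb rose by 1.67, Ctsf by 1.17, Gm2a by 1.04, Ctsz by 0.98 and Ctsb by 0.95. Medians were 0.29 in control and 0.47 in knockdown cells, beside -0.07 and -0.02 over all probes. Control and knockdown cells were followed through separate cultures, so each interval compares different RNA pools.

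Whether the knockdown effect itself differed between stages was tested as an interaction in the same model. Larger and smaller refer to the signed log2 difference, so a change from a fall to a rise counts as larger. From the ES to the SNM stage the effect was larger for 13 of 39 members (11.7% of all probes) and smaller for none (9.61% of all probes). At an unadjusted p under 0.05 it was smaller for 1 member and larger for 23 (share of all probes not given). From the SNM to the neuronal stage it was larger for 8 (13.7% of all probes), led by Naglu at 1.08, Arsb at 1.03 and Gm2a at 0.98, and smaller for Ctsa at -1.96, Ids at -0.97 and Gaa at -0.59 (14.8% of all probes). The smaller effect on Ctsa rests on its brightest probe. The other tested Ctsa probes read 0.45, 0.25 and 0.63, and the last was called larger (adjusted p = 0.0255). Ids, the iduronate sulfatase of heparan and dermatan sulfate, went from 9.75, 9.87 and 9.94 in control and 10.27, 10.31 and 10.61 in knockdown cells at the SNM stage to 10.59, 10.64 and 10.59 and 10.07, 10.11 and 10.35 at the neuronal stage. Its knockdown arrays were thus above the control arrays at the first of these stages and below them at the second, each time under 1.5-fold (0.54 and -0.43).

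Other genes of the lysosome were followed through 5 further lists of 82 genes in all, 74 with a probe. None of 65 tested passed at the ES stage, where 0.516% of all probes rose and 1.17% fell. Of 69 tested, 9 rose and 1 fell at the SNM stage, and 13 rose and 1 fell at the neuronal stage. Of all probes, 11% and 13.9% rose and 8.9% and 13.5% fell at these stages. The rises are thus not far above the share of all probes, and the counts by list below describe those genes only. Subunits of the proton pump rose in 3 of 15 cases at the SNM stage, led by Atp6v1g2 at 1.63 and Atp6v0a1 at 0.67, and in 2 of 15 at the neuronal stage, Atp6v0e at 1.45 and Atp6v0a2 at 1.42. Other hydrolases rose in 2 of 16 cases at the SNM stage, including the peptidase Dpp7 at 0.63, and in 3 of 16 at the neuronal stage, led by the protease Lgmn at 1.19 and Man2b2 at 1.06. Genes that sort and mature the hydrolases rose in 2 of 16 cases at each stage: Sumf1, which activates sulfatases, at 1.10 and Gnptg at 0.80 at the SNM stage, then Gnptab at 0.85 and Gnptg at 0.59. Gnptab and Gnptg encode subunits of the enzyme that builds the mannose 6-phosphate tag. In that list Ap3d1, an adaptor subunit, fell by 0.69 at the neuronal stage.

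Other membrane proteins rose in 2 of 15 cases at the SNM stage, Laptm4a at 0.68 and the sialic acid exporter Slc17a5 at 0.59, while Tmem55b fell by 0.85. At the neuronal stage 5 of 15 rose, led by Slc17a5 at 1.44 and Laptm4b at 0.94. The TFE family and mTORC1 control list had 8 of 12 genes with a probe and 7 tested. None rose at the SNM stage, and Rragd, a GTPase that recruits mTORC1 to lysosomes, rose by 0.72 at the neuronal stage. Medians of the 5 lists ran from 0.10 to 0.37 at the SNM stage and from 0.20 to 0.42 at the neuronal stage.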

How the data were processed

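Expression was measured on Illumina MouseWG-6 v2.0 arrays, 18 arrays in 6 conditions of 3. The authors pooled RNA per condition, scanned the arrays and deposited, per probe and array, the bead intensity without normalisation and a detection p-value. A deposited probe profile gave gene symbols (its 72 value columns are named by chip position and were not used). The intensities were background-corrected with the detection p-values, quantile-normalised and log2-transformed (neqc, offset 16, limma 3.58.1, R 4.3.3), which draws low signals together and understates their fold changes. One limma model held all conditions, with empirical Bayes statistics. A probe entered a test if 1 or more of the conditions compared had detection p under 0.05 on each of its 3 arrays, and called at a Benjamini-Hochberg adjusted p under 0.05 over all tested probes with a change of at least 1.5-fold. Interactions were contrasts of the same model. The number of arrays limits the precision.

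The members, the other lists and the tests were chosen with earlier results of these data known. Members described array by array were the up to 6 largest rises and falls of each knockdown comparison, with Lamp1, Ctsd, Grn and Tfeb in any case; other values shown were chosen after they were seen. One gene of the other lists is not reported here by name. A fold given as "at least" sets the detected group's mean against, per array, the higher of the lowest detected signal and the probe's own. The scripts were tested on simulated data. Array numbers in the labels were compared between control and knockdown by the correlation of deviations of same-numbered arrays. It was -0.149, -0.019 and 0.112 (ES), 0.564, 0.109 and 0.536 (SNM) and 0.696, 0.102 and 0.385 (neuronal). At the last 2 stages arrays 1 and 3 deviated together and array 2 little, so whether the numbers pair the arrays is not settled. The main model did not pair them. Alternatives were other background and scaling methods, other detection filters and fold limits, the methods' t-test, the mean over probes, fits on fewer conditions, a replicate block and leaving out each array.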

Additional observations from a re-analysis of the deposited data

Results flagged for a closer look

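The effect of the HPRT knockdown differed between stages for these members, by the interaction term of the limma model at an adjusted p under 0.05 and at least 1.5-fold. Values are differences between log2 fold changes. For the members, larger means moved upward and smaller moved downward, also where the sign changed. From the ES to the SNM stage the brightest Lamp2 probe went from -0.62 to 0.48 and Ctsl from -0.24 to 1.07. Scarb2 went from -0.22 to 0.43 and Ids from -0.18 to 0.54. From the ES to the SNM stage the effect was larger by 2.17 for the brightest Ctsa probe, 1.31 for Ctsl, 1.10 for the brightest Lamp2 probe, 1.05 for Ctsh, 1.03 for Cd63, 1.00 for Tpp1, 0.86 for Gaa, 0.84 for Ppt1, 0.77 for Ctsf, 0.72 for Ids, 0.68 for Ctsb, 0.65 for Scarb2 and 0.64 for Naglu. The Ctsa value rests on 1 probe, since its other tested probes read 0.09 (adjusted p = 0.675) and 0.17 (adjusted p = 0.4). From the SNM to the neuronal stage it was larger by 1.08 for Naglu, 1.03 for Arsb, 0.98 for Gm2a, 0.81 for Gusb (the beta-glucuronidase, at -0.30 and then 0.52), 0.67 for Ctsk, 0.66 for Galc, 0.65 for Scarb2 and 0.63 for Arsa. It was smaller for the brightest Ctsa probe (-1.96), Ids (-0.97) and Gaa (-0.59). The other tested Ctsa probes read 0.45, 0.25 and 0.63, of which the last was called larger (adjusted p = 0.0255). The Hprt1 difference was itself smallest in size at the SNM stage, and the marker lists differ between these RNA pools. Their part in these differences was not tested.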

How the results depend on the processing

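Each count of members called was recomputed under the alternatives. No members' median of a knockdown comparison changed direction, nor did any member in the comparison where the rule above chose it for description. Lamp2 was so chosen at the ES stage only. At the neuronal stage its brightest probe read -0.07 and its variant 1 probes 1.08 to 1.23, so its direction there depends on the probes used. From the ES to the SNM stage in control cells the members' median of 0.06 became -0.04 with scaling to the 75th percentile. The recomputed counts in this section are given without the share of all probes called under the same setting, so they describe the members only. Without a minimum fold change, knockdown against control gave 2 members higher and 3 lower (ES), 25 and 3 (SNM) and 32 and 1 (neuronal). From the ES to the SNM stage 18 rose and 15 fell in control cells and 9 fell in knockdown cells, from the SNM to the neuronal stage control cells gave 24 rises and 1 fall and knockdown cells 32 rises, and the interactions gave 22 larger, then 15 larger and 5 smaller. With a 2-fold minimum the knockdown counts were 0 lower (ES), 4 higher (SNM) and 7 higher (neuronal). In control cells 6 then rose and 3 fell from the ES to the SNM stage and 3 rose afterwards, in knockdown cells 3 rose and 0 fell from the SNM to the neuronal stage, and the interactions gave 5 larger, then 2 larger and 1 smaller.

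With scaling to the 75th percentile and no background correction 7 members rose at the SNM stage, 5 fell in knockdown cells from the ES to the SNM stage, 6 rose in control cells from the SNM to the neuronal stage and 8 interactions were larger from ES to SNM. Quantile normalisation without background correction and background correction without normalisation each gave 5 larger interactions from SNM to neuronal stage, and the latter also gave 4 falls in control cells from ES to SNM and 0 falls in knockdown cells at the ES stage. The methods' t-test gave 0, 12 and 20 rises at the 3 stages both at its own threshold and after Benjamini-Hochberg adjustment, and 1 fall at the ES stage that became 0 after adjustment. As a mean over detected probes of a symbol, 0 members fell at the ES stage and 0 in knockdown cells from the SNM to the neuronal stage.

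Leaving out 1 array gave 0 to 1 falls (ES), 11 to 15 rises (SNM) and 18 to 23 rises (neuronal) in knockdown against control cells. From the ES to the SNM stage the range was 10 to 11 rises and 7 to 8 falls in control and 17 to 18 rises and 2 to 5 falls in knockdown cells. From the SNM to the neuronal stage it was 9 to 12 rises in control and 11 to 16 rises in knockdown cells, and the interactions ranged from 12 to 14, then 7 to 9 larger and 2 to 4 smaller. With the array number as a replicate block the counts were 0 higher and 1 lower (ES), 12 higher (SNM) and 20 higher (neuronal), and the block changed no other count. Of the 3 control arrays, 1 correlated best with the knockdown array of its own number at the ES stage and 2 at each later stage. A block for the slide was not run, because the files used here do not tie chips to samples. The members' median at the SNM stage was 0.47, with 0.32 under 75th percentile scaling and 0.31 without a detection filter.

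Precision is that of 3 arrays of 1 RNA pool, and the spread between cultures was not measured. Probes near background, such as those of Tcfeb, Fuca1 and Ctsc, have little room to show a fall.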
